A study of Mus musculus with 20 samples.

Results

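Genes of prostaglandin synthesis, cytokine signalling and leukocyte adhesion were followed in mouse articular chondrocytes, the cells of joint cartilage. They were picked by symbol and are 10 of the 54532 genes in the deposited table: Ptgs1, Ptgs2, Ptges, Il6, Lif, Ccl2, Ccl7, Cxcl1, Vcam1 and Icam1. The cells came from mice aged 6 weeks and were treated for 48 h with 25-hydroxycholesterol (25HC) at 20 µM, its 25-hydroxycholesterol-3-sulfate (25HC3S) at the same dose, GW3965 at 2 µM or the solvent DMSO (Vehicle). Each of the 4 groups has 5 RNA-seq libraries, 20 in all, and every gene has a value in each. The labels give no mouse strain, no inflammatory stimulus, and no statement of whether replicates came from separate animals or cultures, so each p-value reflects library-to-library spread that may be technical. In bulk RNA, fewer cells of a type and less RNA per cell cannot be told apart.

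25HC is an oxysterol made from cholesterol by cholesterol 25-hydroxylase, 25HC3S carries a sulfate on its 3-hydroxyl, and GW3965 is a man-made activator of liver X receptors, nuclear receptors that respond to oxysterols. Cyclooxygenases, encoded by Ptgs1 and Ptgs2, turn arachidonic acid into prostaglandin H2, which the synthase encoded by Ptges turns into prostaglandin E2, a mediator of joint pain and cartilage breakdown. Interleukin-1, tumour necrosis factor and Toll-like receptor ligands are known to induce Ptgs2, Il6, Ccl2, Cxcl1, Vcam1 and Icam1 through NF-kappaB and AP-1 factors, and liver X receptor agonists are known to restrain such genes in macrophages.

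The RefSeq promoter table (GRCm38.p6) held a window for 7 of the 10 genes, reaching from 250 bases before the transcription start to 50 after it. The part before the start is shown for both cyclooxygenase genes, because both were called in a comparison below, and for Cxcl1 and Il6, because they hold the kappaB matches. Capitals mark a match to the NF-kappaB consensus (kappaB) or to the AP-1 motif TGANTCA, searched on both strands; TGACGTCA was searched likewise and TATAAA on the gene's strand. The windows lie on the plus strand at chr2:36230176-36230425 for Ptgs1, chr1:150099781-150100030 for Ptgs2, chr5:90890995-90891244 for Cxcl1 and chr5:30012864-30013113 for Il6.
Ptgs1: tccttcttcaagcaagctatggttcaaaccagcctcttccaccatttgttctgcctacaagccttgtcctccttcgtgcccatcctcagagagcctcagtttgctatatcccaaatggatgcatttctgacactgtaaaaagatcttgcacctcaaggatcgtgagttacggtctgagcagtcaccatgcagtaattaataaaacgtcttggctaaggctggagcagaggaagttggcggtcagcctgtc
Ptgs2: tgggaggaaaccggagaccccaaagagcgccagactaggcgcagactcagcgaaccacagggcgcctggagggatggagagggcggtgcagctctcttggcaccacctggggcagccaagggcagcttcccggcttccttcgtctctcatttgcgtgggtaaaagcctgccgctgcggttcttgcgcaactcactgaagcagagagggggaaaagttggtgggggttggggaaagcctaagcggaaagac
Cxcl1: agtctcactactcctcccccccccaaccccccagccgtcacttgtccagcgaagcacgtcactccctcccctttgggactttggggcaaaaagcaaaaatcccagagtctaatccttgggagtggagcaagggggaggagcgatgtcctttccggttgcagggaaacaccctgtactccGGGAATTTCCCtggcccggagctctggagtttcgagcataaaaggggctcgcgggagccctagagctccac
Il6: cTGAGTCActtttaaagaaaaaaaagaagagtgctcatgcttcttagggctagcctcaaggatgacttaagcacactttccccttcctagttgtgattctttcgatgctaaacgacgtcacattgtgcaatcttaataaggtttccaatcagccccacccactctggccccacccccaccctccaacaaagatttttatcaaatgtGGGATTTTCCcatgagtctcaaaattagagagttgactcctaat
The Cxcl1 window holds overlapping kappaB matches that begin 71 and 70 bases before the start, and the Il6 window holds a kappaB match that begins 44 bases before it and an AP-1 match 249 bases before it. Neither Ptgs1 nor Ptgs2 has capitals. Outside the printed windows, the Lif window held an AP-1 match 228 bases before the start, and the Ptges window held no match to any motif searched. In the Icam1 window TATAAA began at base 14 counted from the RefSeq start. That start directly follows chr9:21015939, and TATAAA lies before the Icam1 gene start given below, chr9:21015985. None of the 7 windows held TGACGTCA, the cyclic AMP response element. Over all 32851 windows of the same length, 4.51% held a kappaB match, 7.81% an AP-1 match, 1.79% TGACGTCA and 8.32% TATAAA. The matches are a description of these letters only.

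The deposited values are FPKM, fragments scaled to gene length and library size, so levels can be ranked between genes. By the median over the 20 libraries, the chemokine genes Ccl7 (43.3 FPKM) and Ccl2 (39.1 FPKM) stood highest, followed by Icam1 (13.5), Ptgs1 (6.11), Vcam1 (4.94), Ptgs2 (3.76), Ptges (2.61), Lif (0.997), Cxcl1 (0.480) and Il6 (0.212). Neighbours in that order overlapped in range, except that the lowest Ptges value (1.49) lay above the highest Lif value (1.31). Ccl2 was above Ccl7 in 8 of 20 libraries, and Ptgs1 was above Ptgs2 in 20 of 20. Differences were tested with limma on log2(FPKM + 1) in 1 fit over all 20 libraries, for the 12752 genes with at least 1 FPKM in at least 5 libraries. Of the 10 genes 9 passed this filter. Il6 reached 1 FPKM in 0 libraries and was tested alone, Lif did so in 10, and Cxcl1 in exactly 5, namely 25HC3S libraries 2 to 5 and Vehicle library 1, so that it passed mainly through the group where it was high. A gene is said to have risen or fallen only at a Benjamini-Hochberg adjusted p under 0.05 over all genes tested, and differences are given as log2 ± SE.

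Depth ran from 14653777 to 19365220 fragments in genes. Vehicle libraries 2, 3 and 4 and 25HC3S library 1 stood apart: they had 237 to 1171 genes with exactly 1 fragment, against 1808 to 2057 in the other 16, and a mitochondrial share of 3.14% to 4.07%, or 0.369% in Vehicle library 2, against 0.889% to 1.41%. Differences of the 10 genes are therefore given with and without these 4 libraries where the comparison is described in full. The liver X receptor target Abca1 was higher in GW3965 than in Vehicle by 3.22 ± 0.13. Col2a1, the collagen that defines cartilage, averaged 2303 ± 147 FPKM in 25HC, 2001 ± 299 in 25HC3S, 2929 ± 296 in GW3965 and 1958 ± 996 in Vehicle libraries (SD, n = 5 each), and all 8 chondrocyte markers passed the filter. Macrophage markers were expressed as well. Their sum over 12 genes was 716 to 1018 FPKM in 25HC, 359 to 713 in 25HC3S, 910 to 1057 in GW3965 and 420 to 1032 in Vehicle, and without the 4 libraries 583 to 713 in 25HC3S and 865 to 1032 in Vehicle. All 7 neutrophil markers and all 6 T and B cell markers stayed under 1 FPKM in every library. Endothelial markers summed to at most 5.73 FPKM in 25HC, 4.86 in 25HC3S, 5.33 in GW3965 and 7.72 in Vehicle, and synovial and fibroblast markers to 635 to 669 FPKM in 25HC, 520 to 566 in 25HC3S, 582 to 623 in GW3965 and 568 to 887 in Vehicle.

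**Figure D1:**
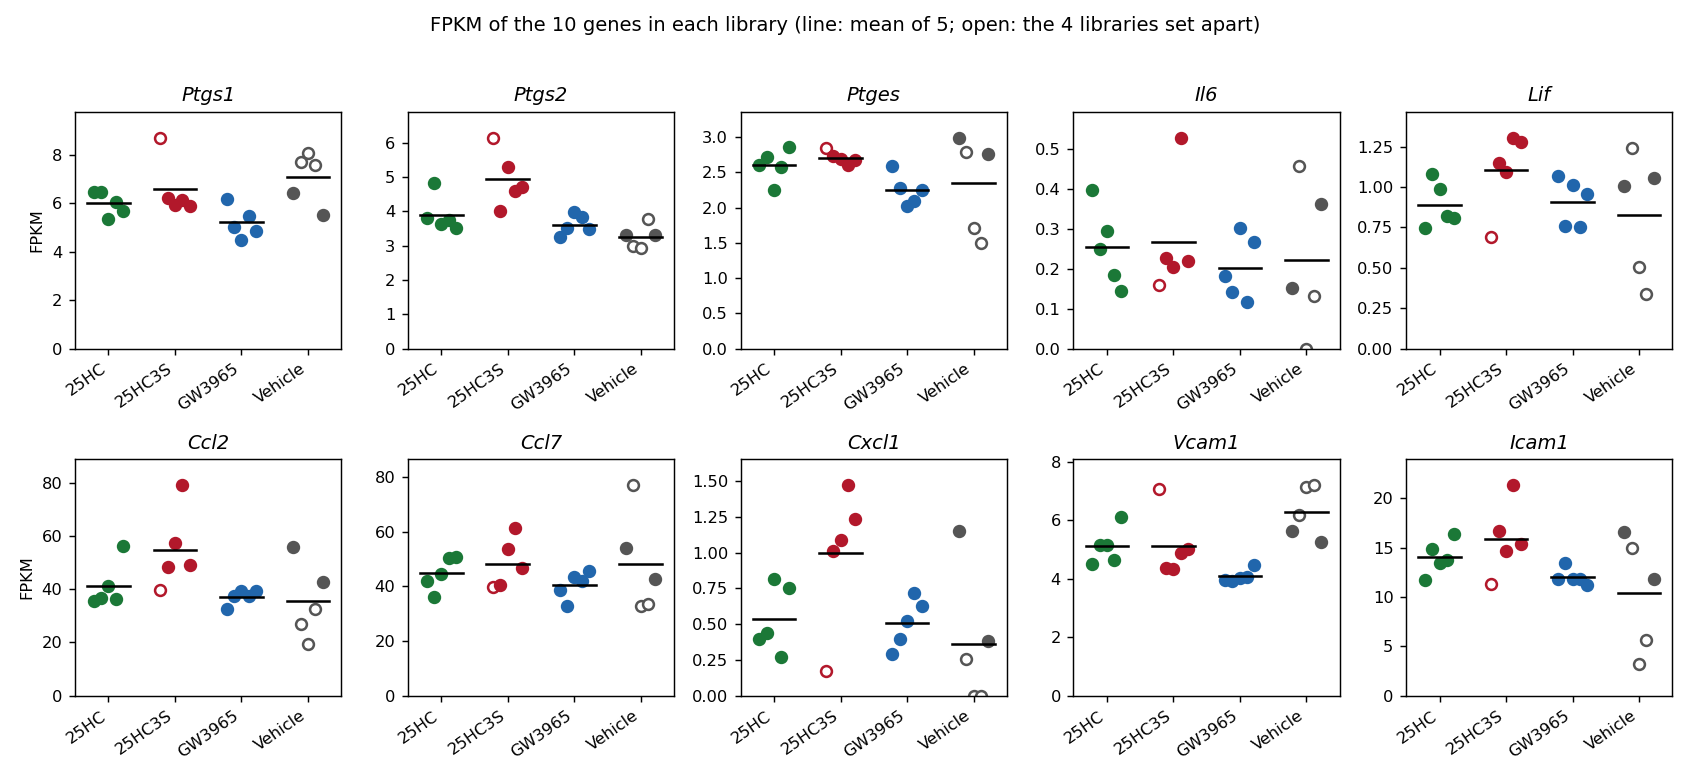
FPKM of each of the 10 genes in each library, by group. Points are libraries, lines are means of 5, and open points are the 4 libraries that stood apart. Ptgs2 in 25HC3S lies wholly above Vehicle, and Vcam1 in GW3965 wholly below it, while the Vehicle points for Icam1 run from 3.16 to 16.6 FPKM.

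Ptgs2, the inducible cyclooxygenase, was the only one of the 9 tested genes that rose in 25HC3S against Vehicle. Its gene lies at chr1:150100031-150108227 (plus strand, GRCm38). Ptgs2 measured 3.80, 4.81, 3.62, 3.75 and 3.52 FPKM in 25HC libraries 1 to 5, and 6.15, 4.00, 5.31, 4.59 and 4.72 FPKM in 25HC3S libraries. It measured 3.26, 3.51, 3.98, 3.83 and 3.48 FPKM in GW3965 libraries, and 3.32, 2.98, 2.92, 3.78 and 3.31 FPKM in Vehicle libraries. All 5 of the 25HC3S values lay above the highest GW3965 value and above the highest Vehicle value, while 3 of them lay within the range of 25HC. The mean was 4.95 ± 0.82 FPKM in 25HC3S against 3.26 ± 0.34 in Vehicle (SD, n = 5 each), 1.52 times as high, with a difference of 0.48 ± 0.09 (limma, adjusted p = 0.0104). It was 1 gene of 9 against 0.463% of all genes tested that rose, and groups lay apart in this direction in 1.02% of all genes. Leaving out the 4 libraries, the difference was 0.39 ± 0.10 (adjusted p = 0.0387), again 1 of 9 where 1.33% of all genes rose. Leaving out any 1 library kept the adjusted p between 0.00556 and 0.0372, but a fit of the 2 groups alone gave 0.264.

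Against GW3965, Ptgs2 was higher in 25HC3S by 0.36 ± 0.09 (limma, adjusted p = 0.0257), again as the only 1 of 9, where 2.13% of all genes rose. With the 4 libraries left out it was 0.29 ± 0.08 (adjusted p = 0.0138). The call was lost with no filter on low values (adjusted p = 0.0527) and on leaving out 25HC3S library 1 (0.0735) or 3 (0.0740), or GW3965 library 1 (0.0812), 2 (0.0639) or 5 (0.0655). Macrophage markers moved with the same libraries: 3 of 12 were lower in 25HC3S than in Vehicle and 6 of 12 lower than in GW3965 (7 and 10 of 12 without the 4 libraries), where 1.14% and 2.51% of all genes were lower (2.63% and 9.27% without the 4 libraries). Among them was Mrc1, a mannose receptor, at 6.40 ± 0.52 FPKM in 25HC3S and 25.2 ± 5.4 in Vehicle (SD, n = 5 each). Their part in the Ptgs2 result was not tested.

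Ptgs1, the constitutively expressed cyclooxygenase (chr2:36230426-36252272, plus strand), was lower in GW3965 than in Vehicle. It measured 6.48, 6.47, 5.36, 6.08 and 5.70 FPKM in 25HC libraries, and 8.73, 6.22, 5.94, 6.15 and 5.88 in 25HC3S libraries. It measured 6.20, 5.02, 4.48, 5.50 and 4.86 FPKM in GW3965 libraries, and 6.42, 7.72, 8.10, 7.61 and 5.53 in Vehicle libraries. The 4 highest values of the 20 were those of the 4 libraries set apart, from 7.61 to 8.73 FPKM, while the other 16 lay between 4.48 and 6.48. The GW3965 mean of 5.21 ± 0.66 FPKM was below the Vehicle mean of 7.08 ± 1.07 (SD, n = 5 each) by -0.37 ± 0.11 (limma, adjusted p = 0.0432), and the ranges overlapped. Without the 4 libraries the difference was -0.17 ± 0.09 (adjusted p = 0.314), and the part of those libraries in the pooled value cannot be told apart from treatment in Vehicle, where they are 3 of 5. The call was also lost with no filter on low values (0.0839), in a fit of the 2 groups (0.185), with array weights (0.248), and on leaving out GW3965 library 2, 3, 4 or 5 or Vehicle library 2, 3 or 4 (adjusted p 0.0630 to 0.109).

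The ratio of Ptgs2 to Ptgs1 put both cyclooxygenases on 1 scale. Its median was 0.617 in 25HC (0.587 to 0.745), 0.746 in 25HC3S (0.643 to 0.893), 0.700 in GW3965 (0.525 to 0.887) and 0.496 in Vehicle (0.361 to 0.598). The 4 libraries left out, it ran from 0.643 to 0.893 in 25HC3S and from 0.516 to 0.598 in Vehicle. Every 25HC3S ratio was above every Vehicle ratio, a separation that Ptgs2 alone also had. The share of all gene pairs with such a separation was not worked out. The 25HC3S range overlapped with those of 25HC and GW3965. The 25HC and GW3965 ranges both overlapped with Vehicle, that of 25HC only between 0.587 and 0.598.

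Ptges, which encodes microsomal prostaglandin E synthase 1 (chr2:30889471-30929863, minus strand), passed the test in no comparison over 20 libraries. It measured 2.84, 2.73, 2.68, 2.61 and 2.67 FPKM in 25HC3S libraries against 2.59, 2.27, 2.02, 2.09 and 2.25 in GW3965 libraries, and these ranges did not overlap. In 25HC libraries it ran from 2.25 to 2.86 FPKM, and in Vehicle libraries it was 2.99, 2.79, 1.70, 1.49 and 2.75 FPKM, with libraries 3 and 4 the lowest of all 20. The difference between 25HC3S and GW3965 was 0.19 ± 0.11 over 20 libraries (limma, adjusted p = 0.544) and 0.18 ± 0.06 without the 4 libraries (adjusted p = 0.0398). Between GW3965 and Vehicle it was -0.02 ± 0.11 (adjusted p = 0.907) and -0.26 ± 0.07 without the 4 libraries (adjusted p = 0.0384), so that the second call rests on 2 Vehicle libraries, 2.99 and 2.75 FPKM. In that fit 2 of 9 genes, Ptges and Vcam1, were lower in GW3965, where 3.79% of all genes were.

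Among the other genes that make, move or break down prostanoids, 15 of 18 listed were tested. In 25HC3S against Vehicle 0 were higher and 3 lower, where 1.14% of all genes were lower, with a median of -0.05 beside 0.02 for all genes. Without the 4 libraries 1 was higher and 4 lower, where 1.33% and 2.63% of all genes were. The other 16 libraries also gave 0 higher and 5 lower in 25HC3S than in 25HC, where 599 of 12752 genes were lower. For 25HC3S against GW3965 the counts were 0 and 6, where 9.27% of all genes were lower. For 25HC against GW3965 they were 2 and 2, where 6.82% and 6.3% were. GW3965 against Vehicle had 1 higher and 1 lower, where 508 of 12752 genes and 3.79% were. Hpgd, the dehydrogenase that inactivates prostaglandin E2, averaged 5.29 ± 0.23 FPKM in 25HC, 3.63 ± 0.43 in 25HC3S, 4.80 ± 0.58 in GW3965 and 6.36 ± 0.30 in Vehicle (SD, n = 5 each). It fell in 25HC3S against Vehicle by -0.67 ± 0.07 (limma, adjusted p = 2.25e-05), against 25HC by -0.45 ± 0.07 (0.00189) and against GW3965 by -0.32 ± 0.07 (0.00872). It also fell in GW3965 against Vehicle, by -0.35 ± 0.07 (0.00569). Leaving out the 4 libraries, these 4 differences were -0.72, -0.48, -0.36 and -0.36, each with an adjusted p of 0.0143 or less, though limma-voom lost the call against GW3965 (0.0559). Hpgds, the hematopoietic prostaglandin D synthase, fell by -0.71 ± 0.14 (0.0130) in 25HC3S against Vehicle, and Ptgis, the prostacyclin synthase, by -0.32 ± 0.08 (0.0420), or by -0.63 (4.96e-04) and -0.27 (0.00696) over the other 16 libraries. The Ptgis call was lost with no filter (0.0568) and on leaving out 25HC3S library 2, 3, 4 or 5 or Vehicle library 3 or 4 (0.0917 to 0.136). Tbxas1, the thromboxane synthase, was lower in 25HC3S than in GW3965 by -0.43 ± 0.10 (0.00964), or -0.38 over the other 16 libraries (5.80e-04). In 25HC against Vehicle 0 of these 15 passed limma (5 at an unadjusted p under 0.05, 0 with limma-voom), and of 9 prostanoid receptors 1, Tbxa2r, was abundant enough to test. Tbxa2r, the thromboxane receptor, passed in 0 comparisons over 20 libraries with limma or limma-voom (3 at an unadjusted p under 0.05), and without the 4 libraries it was lower in 25HC3S than in GW3965 by -0.42 ± 0.10 (0.00791).

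Il6 and Lif encode cytokines that signal through the gp130 receptor. Il6 (chr5:30013114-30019981, plus strand) was near the detection limit, with 0 to 25 fragments per library. It measured 0.396, 0.248, 0.295, 0.184 and 0.145 FPKM in 25HC libraries and 0.159, 0.226, 0.205, 0.528 and 0.220 in 25HC3S libraries. It measured 0.181, 0.140, 0.302, 0.116 and 0.266 FPKM in GW3965 libraries and 0.152, 0.457, 0, 0.131 and 0.360 in Vehicle libraries, where the count of 0 in library 3 allows up to 0.0827 FPKM. All 4 ranges overlapped. Exact two-sided permutation tests of 5 against 5 libraries gave p = 0.675 for 25HC, 0.603 for 25HC3S and 0.881 for GW3965 against Vehicle, where the smallest p such a test can give is 0.00794. No difference was detectable at this depth. Over the other 16 libraries the differences against Vehicle were -0.00171 in 25HC, 0.0411 in 25HC3S and -0.0624 in GW3965, with exact permutation p = 1, 0.933 and 0.476 in that order, and with 2 Vehicle libraries left this two-sided test cannot pass the 0.05 threshold.

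Lif (chr11:4257557-4272514, plus strand) measured 0.694, 1.15, 1.09, 1.31 and 1.28 FPKM in 25HC3S libraries against 0.749, 1.08, 0.987, 0.819 and 0.808 in 25HC libraries. In GW3965 libraries it ran from 0.751 to 1.07 FPKM and in Vehicle libraries it was 1.01, 1.24, 0.508, 0.337 and 1.06. The 25HC3S libraries 2 to 5 lay above all 25HC and GW3965 libraries, and library 1, which stood apart, lay below them. The difference between 25HC3S and 25HC was 0.15 ± 0.13 over 20 libraries (limma, adjusted p = 0.834) and 0.23 ± 0.08 without the 4 libraries (0.0912). Of 12 other genes of the gp130 family and its signalling tested, 0 passed in any comparison with limma or with limma-voom, with 0 to 5 at an unadjusted p under 0.05, over 20 libraries. The other 16 libraries gave 4 higher and 0 lower in 25HC3S than in 25HC, namely Socs3, Osmr, Clcf1 and Il6st, where 2.49% of all genes were higher. They also gave 4 higher and 1 lower in 25HC3S than in GW3965, where 8.59% and 9.27% of all genes were. In 25HC against GW3965 they gave 3 higher and 2 lower, where 6.82% and 6.3% of all genes were. Against Vehicle they gave 2 higher in 25HC3S, where 1.33% of all genes were, and 1 higher in GW3965, where 508 of 12752 were.

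Ccl2, a monocyte chemoattractant that acts on the receptor CCR2, was higher in every 25HC3S library than in any GW3965 library. Its gene (chr11:82035571-82037453, plus strand) lies close to Ccl7. Ccl2 measured 35.5, 36.7, 41.1, 36.4 and 56.2 FPKM in 25HC libraries and 39.6, 48.2, 57.2, 79.3 and 49.0 in 25HC3S libraries. It measured 32.4, 37.3, 39.2, 37.3 and 39.1 FPKM in GW3965 libraries and 55.7, 26.8, 19.5, 32.4 and 42.7 in Vehicle libraries. The 3 lowest Vehicle values were those of the libraries set apart, and the 25HC3S range overlapped with 25HC and Vehicle. Over 20 libraries the difference between 25HC3S and GW3965 was 0.51 ± 0.22 (limma, adjusted p = 0.296), and without the 4 libraries it was 0.62 ± 0.15 (0.00805). Against Vehicle the difference in 25HC3S was 0.66 ± 0.22 (0.151), or 0.23 ± 0.19 without the 4 libraries (0.604), and leaving out Vehicle library 1 alone made it 0.84 (0.0267). In GW3965 the sign against Vehicle turned, with 0.15 ± 0.22 over 20 libraries (0.636) and -0.39 ± 0.18 without the 4 (0.259).

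Ccl7 (chr11:82045712-82047525, plus strand), a monocyte chemokine of the same gene cluster, passed no test. It ran from 36.3 to 50.7 FPKM in 25HC (median 44.4), from 39.7 to 61.4 in 25HC3S (46.6), from 32.9 to 45.7 in GW3965 (42.0) and from 32.9 to 77.3 in Vehicle (42.9). These 4 ranges overlapped, and the highest value of all 20 was that of Vehicle library 2. Differences against Vehicle were -0.04 ± 0.19 in 25HC, 0.06 ± 0.19 in 25HC3S and -0.18 ± 0.19 in GW3965 (limma, adjusted p between 0.508 and 0.887), and -0.11, 0.0527 and -0.25 over the other 16 libraries (0.441 to 0.994).

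Cxcl1, a neutrophil chemoattractant that acts on CXCR2 (chr5:90891241-90893115, plus strand), reached 1 FPKM in 25HC3S libraries 2 to 5 and Vehicle library 1 alone. It measured 0.399, 0.438, 0.818, 0.267 and 0.750 FPKM in 25HC libraries and 0.171, 1.01, 1.09, 1.48 and 1.23 in 25HC3S libraries. It measured 0.292, 0.394, 0.522, 0.721 and 0.625 FPKM in GW3965 libraries and 1.15, 0.259, 0, 0 and 0.379 in Vehicle libraries, where counts of 0 in libraries 3 and 4 allow up to 0.107 and 0.102 FPKM. These values rest on at most 54 fragments, and the low 25HC3S value is that of library 1, which stood apart. Because Cxcl1 passed the filter through its high group, its differences are given as a description, with no call. With the 4 libraries left out, 25HC3S minus 25HC was 0.53 ± 0.14 and 25HC3S minus GW3965 was 0.55 ± 0.14, against 0.35 ± 0.21 and 0.37 ± 0.21 over 20 libraries. Against Vehicle the 25HC3S difference was 0.57 ± 0.21, becoming 0.75 without 25HC3S library 1 or without Vehicle library 1, and 0.35 ± 0.18 without the 4 libraries.

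Of 14 other chemokines and colony-stimulating factors tested from a list of 23, 2 were higher and 0 lower in 25HC3S than in Vehicle, where 0.463% of all genes were higher. The list median was 0.39 beside 0.02 for all genes, and 0.0789 beside 0.0137 without the 4 libraries. In that fit 2 were again higher than in Vehicle, where 1.33% of all genes were. Against 25HC 4 were higher and 0 lower in 25HC3S, where 2.49% of all genes were higher. Against GW3965 6 were higher and 0 lower in 25HC3S, where 8.59% were higher. In 25HC 4 were higher and 1 lower than in GW3965, where 6.82% and 6.3% were. GW3965 against Vehicle had 1 higher and 2 lower, where 508 of 12752 genes and 3.79% were. Csf1, the macrophage growth factor, averaged 263 ± 34 FPKM in 25HC3S, 257 ± 9.2 in GW3965 and 186 ± 42 in Vehicle (SD, n = 5 each). It was higher than in Vehicle by 0.52 ± 0.12 in 25HC3S (limma, adjusted p = 0.0402) and by 0.50 ± 0.12 in GW3965 (0.0222), and without the 4 libraries by 0.30 (0.00319) and 0.20 (0.0233). Csf1 in 25HC3S lost its call with no filter, with equal FPKM sums, with limma-voom and on leaving out 25HC3S library 2, 3, 4 or 5 or Vehicle library 3 or 4 (adjusted p 0.0556 to 0.118). In GW3965 it lost it with no filter (0.0531) and on leaving out GW3965 library 3 or 4 or Vehicle library 3 or 4 (0.0503 to 0.0655). Cxcl14 was higher in 25HC3S by 0.50 ± 0.11 than in Vehicle (0.0290) and by 0.45 ± 0.11 than in GW3965 (0.0209). The first Cxcl14 call was lost on leaving out 25HC3S library 2, 3, 4 or 5 or Vehicle library 3 or 4 (0.0520 to 0.0902), and the other on leaving out 25HC3S library 2 or 4 or GW3965 library 4 or 5 (0.0599 to 0.0645). Over the other 16 libraries the Cxcl14 differences were 0.41 (0.0187) and 0.51 (7.72e-05).

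Cxcl10, a T cell chemokine induced by interferon, stood lowest in GW3965. It ran from 1.19 to 2.70 FPKM in 25HC, 1.24 to 2.53 in 25HC3S, 0.350 to 0.755 in GW3965 and 0.680 to 2.67 in Vehicle, and the GW3965 range overlapped with that of Vehicle but not with those of 25HC and 25HC3S. It was lower in GW3965 than in Vehicle by -0.77 ± 0.21 (limma, adjusted p = 0.0339), higher in 25HC than in GW3965 by 0.87 ± 0.21 (0.0340), and higher in 25HC3S than in GW3965 by 1.01 ± 0.21 (0.00452). The first of these was lost with no filter (0.0761), with limma-voom (-1.56, adjusted p = 0.0502) and on leaving out GW3965 library 1, 2, 3 or 4 or Vehicle library 3 (0.0662 to 0.0908). The 25HC call was lost with no filter (0.0860) and on leaving out 25HC library 3, 4 or 5 or GW3965 library 1, 2, 3 or 4 (0.0508 to 0.119). Over the other 16 libraries the 3 differences were -0.85 (0.0443), 0.87 (0.00461) and 0.97 (0.00218). Cx3cl1, or fractalkine, was higher in 25HC3S than in GW3965 by 0.59 ± 0.13 (0.00706), or 0.65 without the 4 libraries (2.64e-06). Cx3cr1, the fractalkine receptor, was lower in GW3965 than in Vehicle by -0.76 ± 0.17 (0.0128), or -0.65 without the 4 libraries (0.00130). It is also known in macrophages, whose marker levels are given above.

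Vcam1 encodes the adhesion molecule that binds the integrin of alpha 4 and beta 1 chains on leukocytes (chr3:116109949-116129688, minus strand), and it fell in GW3965 against Vehicle. It measured 4.51, 5.16, 5.14, 4.63 and 6.12 FPKM in 25HC libraries and 7.07, 4.36, 4.32, 4.89 and 5.00 in 25HC3S libraries. It measured 3.95, 3.91, 4.00, 4.05 and 4.46 FPKM in GW3965 libraries and 5.63, 6.16, 7.13, 7.21 and 5.25 in Vehicle libraries. All 5 GW3965 values lay below the lowest Vehicle value and below the lowest 25HC value. The GW3965 mean of 4.08 ± 0.22 FPKM was 0.649 times the Vehicle mean of 6.27 ± 0.88 (SD, n = 5 each), with a difference of -0.51 ± 0.11 (limma, adjusted p = 0.00628). Together with Ptgs1 that made 2 of 9 lower and 0 higher, where 2.97% of all genes fell, and Vcam1 was the only one of the 9 whose ranges did not overlap, as in 3.29% of all genes in that direction. The 4 libraries set apart had the highest 4 values of the 20, from 6.16 to 7.21 FPKM. Without them the Vehicle group held 2 libraries, at 5.63 and 5.25 FPKM, and the difference was -0.34 ± 0.08 (adjusted p = 0.0164). The call held in all 10 fits that left out 1 library, with adjusted p between 0.00333 and 0.0199, and in those fits the difference ran from -0.56 to -0.47. Of the macrophage markers, 2 of 12 were lower in the same comparison, Mrc1 by -0.89 ± 0.13 (2.36e-04) and Adgre1 by -0.32 ± 0.09 (0.0321), and without the 4 libraries Mrc1 had -0.72 (0.00396) and Adgre1 -0.34 (0.0767). The Adgre1 call was also lost with limma-voom (0.0503), with equal FPKM sums (0.0601), with no filter (0.0511), in a fit of the 2 groups (0.117) and in 6 of 10 fits that left out 1 library. The 12 markers as a list went the other way, with a median of 0.40 beside 0.02 for all genes, though 0 were called higher. Without the 4 libraries that median was -0.0138 beside 0.00708, with 1 of 12 lower. Their part in the Vcam1 and Ptgs1 results was not tested.

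Against GW3965, Vcam1 in 25HC was higher by 0.26 ± 0.11 (limma, adjusted p = 0.438) with ranges that did not overlap, as in 5.72% of all genes in that direction. Without the 4 libraries, none of which belongs to these groups, the difference was the same with a smaller error (0.26 ± 0.06, adjusted p = 0.0102), and a fit of the 2 groups alone gave 0.0244. It was then 1 of 9 that was higher, where 6.82% of all genes were. Against Vehicle, Vcam1 was lower in 25HC by -0.25 ± 0.11 (0.152) and in 25HC3S by -0.26 ± 0.11 (0.235). Leaving out 25HC3S library 1 made the 25HC3S difference -0.36 (0.0373), while leaving out all 4 made it -0.19 ± 0.09 (0.258).

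Icam1, the ligand of the leukocyte integrins LFA-1 and Mac-1 (chr9:21015985-21028817, plus strand), varied most within Vehicle. It measured 11.7, 14.9, 13.5, 13.7 and 16.4 FPKM in 25HC libraries and 11.4, 16.7, 14.7, 21.4 and 15.3 in 25HC3S libraries. It measured 11.8, 13.4, 11.8, 11.8 and 11.2 FPKM in GW3965 libraries and 16.6, 14.9, 3.16, 5.62 and 11.8 in Vehicle libraries. Vehicle libraries 3 and 4 were the lowest of all 20, and 25HC3S libraries 2 to 5 lay above every GW3965 library. Over 20 libraries Icam1 passed in no comparison, with 0.58 ± 0.28 in 25HC, 0.73 ± 0.28 in 25HC3S and 0.38 ± 0.28 in GW3965 against Vehicle (limma, adjusted p between 0.170 and 0.336). Over the other 16 libraries these differences were -0.01, 0.25 and -0.21, so that 2 of the 3 changed sign, while leaving out Vehicle library 1 alone brought the 25HC difference to 0.79 (0.0489). Between 25HC3S and GW3965 the difference was 0.35 ± 0.28 (0.750), and 0.46 ± 0.11 without the 4 libraries (0.00876). Of 11 other adhesion molecules and integrin partners tested, 0 passed in any comparison over 20 libraries with limma or limma-voom, with 0 to 3 at an unadjusted p under 0.05. Over the other 16 libraries limma called 1 higher in 25HC3S than in Vehicle, where 1.33% of all genes were. It called 1 higher and 1 lower in 25HC3S than in 25HC, where 2.49% of all genes were higher and 599 of 12752 lower. In 25HC3S against GW3965 it called 2 higher and 2 lower, where 8.59% and 9.27% of all genes were. In 25HC against GW3965 it called 1 higher, where 6.82% of all genes were.

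**Figure D2:**
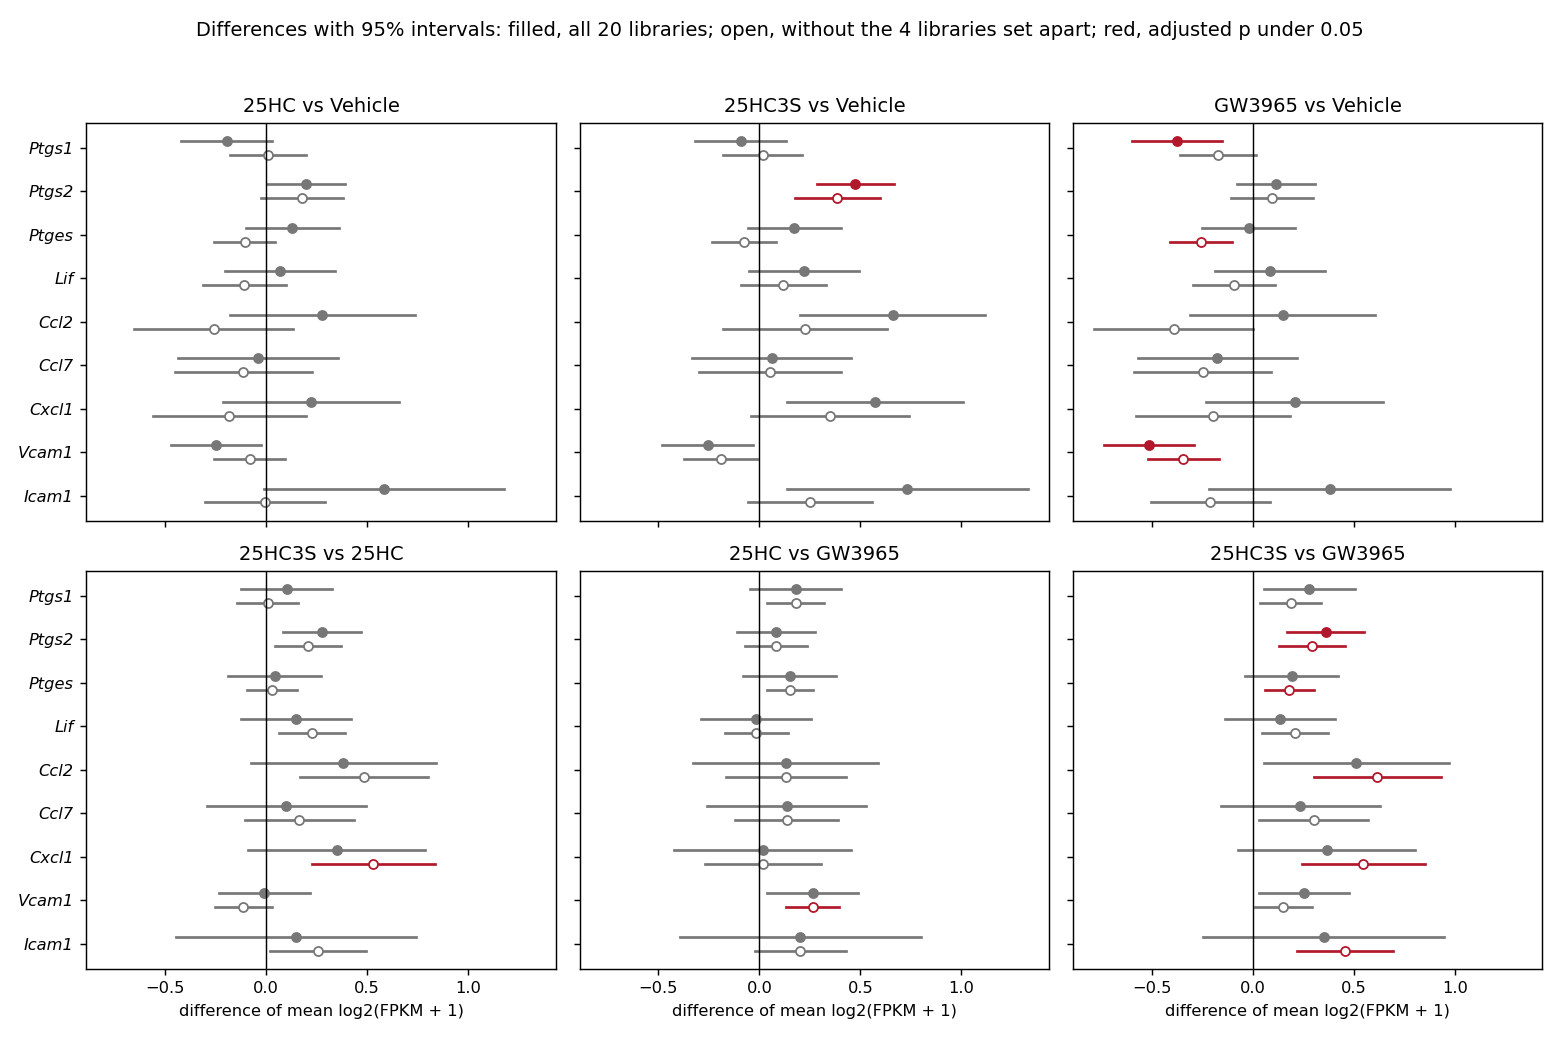
Difference in mean log2(FPKM + 1) for the 9 tested genes in 6 comparisons, with 95% intervals. Filled points use all 20 libraries, open points leave out the 4 that stood apart, and red marks an adjusted p under 0.05. Ptgs2 in 25HC3S and Vcam1 in GW3965 are red in both fits against Vehicle, and in 25HC3S against GW3965 the open points of 5 genes are red but the filled point of Ptgs2 alone. One of the 5 is Cxcl1, which passed the filter through its high group.

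25HC3S and 25HC differ by the sulfate and were given at the same dose for the same time. Over 20 libraries 0 of the 9 genes passed between 25HC3S and 25HC with limma or limma-voom, against 0.816% of all genes in either direction, and 1 had an unadjusted p under 0.05. That gene was Ptgs2, with 4.95 ± 0.82 FPKM in 25HC3S and 3.90 ± 0.52 in 25HC (SD, n = 5 each), a difference of 0.28 with a 95% interval from 0.08 to 0.47 (limma, adjusted p = 0.295). For Vcam1 the interval ran from -0.23 to 0.22, for Ptgs1 from -0.12 to 0.33 and for Ptges from -0.19 to 0.27. Intervals were wider for Cxcl1 (-0.09 to 0.79), Ccl2 (-0.08 to 0.84) and Icam1 (-0.45 to 0.74), so differences anywhere within those ranges were not excluded here. Without 25HC3S library 1 and the 3 Vehicle libraries, 0 of the 8 genes other than Cxcl1 passed, and Ccl2 had 0.49 ± 0.15 (0.0599). With array weights Ptgs2 was called higher in 25HC3S than in 25HC.

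25HC and Vehicle differed in 0 of the 9 genes with limma or limma-voom, where 0.0392% of all genes were called. At an unadjusted p under 0.05 there were 2, Ptgs2 with 0.20 ± 0.09 (adjusted p = 0.159) and Vcam1 with the value above. 25HC and GW3965, which were given at doses of 20 and 2 µM, differed in 0 of 9 with limma or limma-voom, where 1.74% of all genes were called, and 1 had an unadjusted p under 0.05, Vcam1. Between 25HC3S and GW3965, at the same unequal doses, 1 of 9 was called over 20 libraries, and 3 genes had ranges that did not overlap (Ptgs2, Ptges and Ccl2), as in 5.85% of all genes in that direction. Without the 4 libraries 4 of the 8 genes other than Cxcl1 were higher and 0 lower in 25HC3S than in GW3965, namely Ptgs2, Ptges, Ccl2 and Icam1, where 8.59% of all genes were higher. The comparisons against Vehicle share their control libraries, and 3 of the 5 are among those set apart.

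Over all genes 59 were higher and 146 lower in 25HC3S than in Vehicle (72 and 113 with equal FPKM sums), 445 and 379 in GW3965 than in Vehicle (357 and 467 with limma-voom), and 271 and 320 in 25HC3S than in GW3965 (363 and 256 with limma-voom).

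Genes of the pathways that act on these inflammatory genes were read from lists of known members. Of 17 NF-kappaB subunits and regulators tested, 1 was higher in 25HC3S than in Vehicle and 2 higher than in GW3965, where 0.463% and 2.13% of all genes were higher. The list median against Vehicle was 0.26 beside 0.02 for all genes, and without the 4 libraries it was 0.0872 beside 0.0137, with 0 of the 17 called. Relb, a subunit of the alternative NF-kappaB pathway, averaged 6.91 ± 0.65 FPKM in 25HC3S, 4.88 ± 0.30 in GW3965 and 4.84 ± 0.82 in Vehicle (SD, n = 5 each). It was higher in 25HC3S than in Vehicle by 0.44 ± 0.09 (limma, adjusted p = 0.0105) and than in GW3965 by 0.42 ± 0.09 (0.00444), and without the 4 libraries by 0.25 (0.113) and 0.43 (1.48e-04). Nfkbia, the inhibitor IkappaB alpha and itself a target of NF-kappaB, was higher in 25HC3S than in GW3965 by 0.54 ± 0.11 (0.00320), or 0.56 without the 4 libraries (0.00160). Without the 4 libraries 4 of the 17 were higher in 25HC3S than in 25HC, 5 higher than in GW3965, and 0 lower in either, where 2.49% and 8.59% of all genes were higher.

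Of 14 genes of interleukin-1, tumour necrosis factor and Toll-like receptor signalling tested, 1 was higher in 25HC3S than in Vehicle and 4 were higher than in GW3965. Of all genes 0.463% and 2.13% were higher in these comparisons. Without the 4 libraries 2 were higher in 25HC3S than in Vehicle and 4 higher than in 25HC, where 1.33% and 2.49% of all genes were. In 25HC3S against GW3965 there were then 5 higher and 2 lower, where 8.59% and 9.27% of all genes were. In 25HC against GW3965 there were 2 higher and 2 lower, where 6.82% and 6.3% of all genes were. Cd14, a co-receptor for lipopolysaccharide, averaged 26.6 ± 3.6 FPKM in 25HC, 43.9 ± 6.1 in 25HC3S, 25.2 ± 1.8 in GW3965 and 25.7 ± 2.9 in Vehicle (SD, n = 5 each). Its difference in 25HC3S was 0.70 ± 0.11 against 25HC (limma, adjusted p = 0.00137), 0.77 ± 0.11 against GW3965 (1.01e-04) and 0.75 ± 0.11 against Vehicle (6.06e-04), and without the 4 libraries 0.78, 0.84 and 0.74. Of the 12 macrophage markers 3, Mrc1, Adgre1 and Fcgr1, fell in 25HC3S against Vehicle, where 1.14% of all genes were lower, and 9 were not called. Their list median was -0.25 beside 0.02 for all genes, or -0.69 beside 0.0137 without the 4 libraries. The Fcgr1 call was lost in a limma fit of the 2 groups alone (adjusted p = 0.256). Their relation to Cd14 was not tested. Il1rl1, the interleukin-33 receptor, was lower in GW3965 than in Vehicle by -0.77 ± 0.16 (0.00553) and higher in 25HC3S than in GW3965 by 0.77 ± 0.16 (0.00461), and without the 4 libraries by -0.48 (0.00297) and 0.70 (3.79e-06). Tnfrsf1a, a tumour necrosis factor receptor, was higher in GW3965 than in Vehicle by 0.72 ± 0.14 (0.00374), or 0.29 without the 4 libraries (2.20e-04). Tlr2 and Il1r1 were higher in 25HC3S than in GW3965 by 0.37 ± 0.10 and 0.28 ± 0.08 (0.0418 for both), and both calls were lost with no filter (0.0796 and 0.0671) and on leaving out any of several single libraries (0.0515 to 0.120). Without the 4 libraries they were 0.28 (0.0130) and 0.23 (7.93e-04).

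Of 10 AP-1 and C/EBP factors tested over 20 libraries, 1 was higher in GW3965 than in Vehicle, where 445 of 12752 genes were. In 25HC3S against GW3965 1 was lower, where 2.51% of all genes were. Each was Atf3, a stress-induced repressor and activator, and no other comparison had a call. Its difference was 0.94 ± 0.19 in GW3965 against Vehicle (limma, adjusted p = 0.00532) and -0.94 ± 0.19 in 25HC3S against GW3965 (0.00452). Without the 4 libraries these were 0.66 (1.98e-05) and -0.78 (7.45e-08). Atf3 averaged 5.94 ± 1.49 FPKM in 25HC3S, 12.1 ± 0.97 in GW3965 and 6.11 ± 2.33 in Vehicle (SD, n = 5 each). For the 10 factors, limma without the 4 libraries gave 2 higher in 25HC3S than in Vehicle, where 1.33% of all genes were. It gave 2 higher in GW3965 than in Vehicle, where 508 of 12752 were. Between 25HC3S and 25HC 2 were higher and 1 lower, where 2.49% and 599 of 12752 were. Between 25HC3S and GW3965 3 were higher and 1 lower, where 8.59% and 9.27% were. Between 25HC and GW3965 1 was higher and 1 lower, where 6.82% and 6.3% were. Of 12 regulators of inflammatory mRNA decay and MAPK phosphatases tested, 0 passed in any comparison over 20 libraries with limma or limma-voom, with 2 to 6 at an unadjusted p under 0.05. Over the other 16 libraries limma called 1 lower in 25HC3S and 2 lower in GW3965 than in Vehicle, where 2.63% and 3.79% of all genes were. It called 1 higher and 1 lower in 25HC3S than in 25HC, where 2.49% of all genes were higher and 599 of 12752 lower. In 25HC3S against GW3965 it called 3 higher and 1 lower, where 8.59% and 9.27% of all genes were. In 25HC against GW3965 it called 2 higher and 2 lower, where 6.82% and 6.3% of all genes were. Most calls of listed genes against Vehicle ended when the 2 groups were fitted alone. In 25HC3S that held for Hpgds, Ptgis, Csf1, Cxcl14, Relb and the macrophage marker Fcgr1 (adjusted p 0.256 to 0.719). In GW3965 it held for Hpgd, Csf1, Cxcl10, Cx3cr1, Il1rl1, Tnfrsf1a, Atf3 and the macrophage marker Adgre1 (0.0705 to 0.179).

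**Figure D3:**
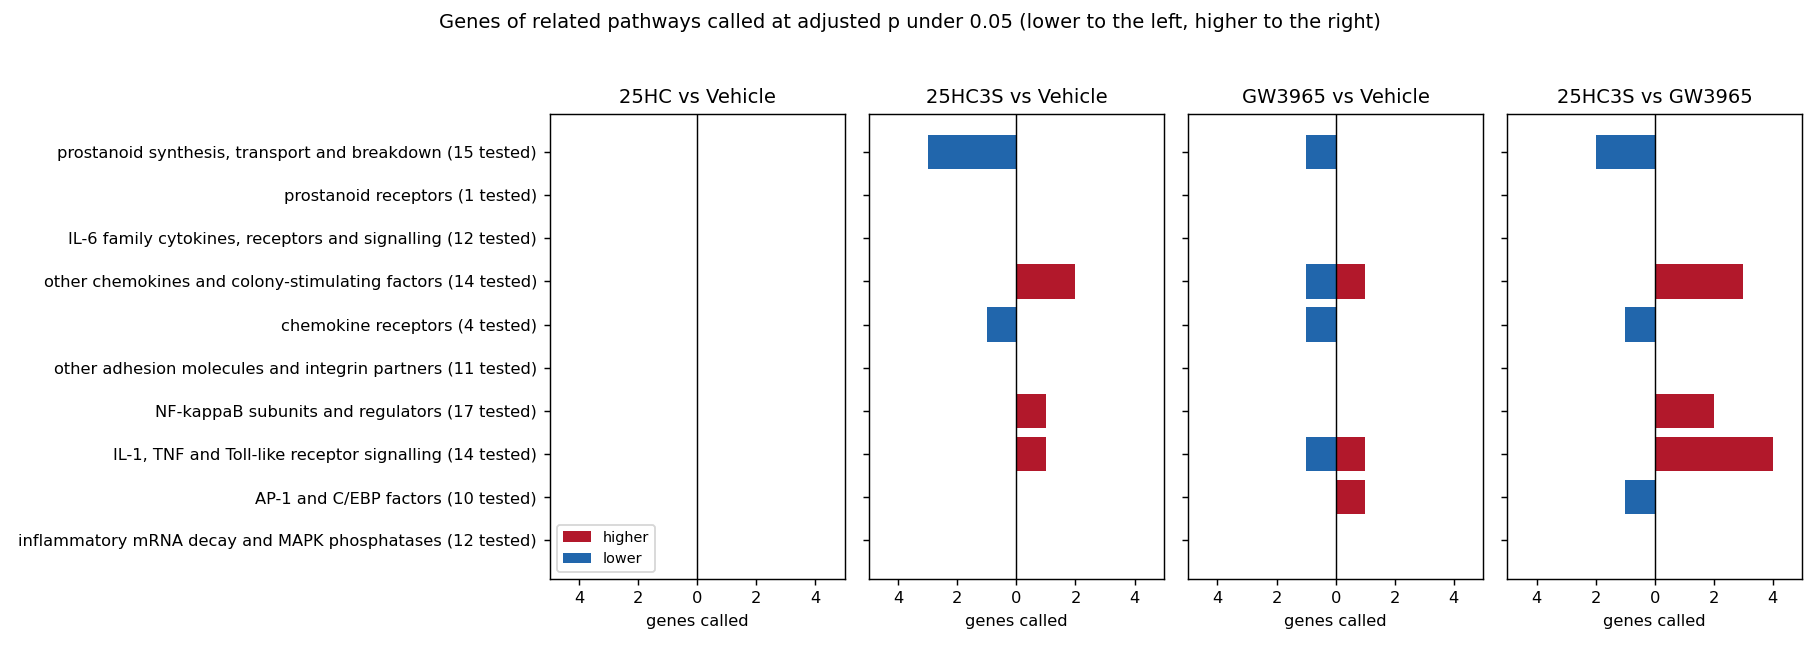
Number of tested genes of each pathway list called lower (bars to the left) or higher (bars to the right) at an adjusted p under 0.05 over 20 libraries, in 4 comparisons. No listed gene was called in 25HC against Vehicle, and 4 genes of interleukin-1, tumour necrosis factor and Toll-like receptor signalling were higher in 25HC3S than in GW3965.

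Ccl2, Cxcl1 and Icam1 varied together across libraries. Pearson's r of log2(FPKM + 1) was 0.85 for Ccl2 and Cxcl1, 0.77 for Ccl2 and Icam1 and 0.75 for Cxcl1 and Icam1 over 20 libraries, and 0.85, 0.85 and 0.73 over the 16 that did not stand apart. Ptgs1 and Vcam1 had r = 0.77 over 20 libraries but 0.34 over 16. Ptgs2 had at most 0.47 with any of the other 8 over 20 libraries, with Ccl2. These are descriptions over libraries that share treatment groups and depth, and carry no p.

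By the same measure the genes most like Ccl2 over 20 libraries were Wdyhv1 (r = 0.88), Cxcl1 (0.85) and Relb (0.85), and over the 16 libraries Nfkb2 (0.90), Nfkbia (0.90) and Relb (0.87). Those most like Icam1 were Dnph1 (0.95), Lmnb2 (0.94) and BC029722 (0.94) over 20 and Nfkb2 (0.85), Ccl2 (0.85) and Sdc4 (0.84) over 16. For Cxcl1 they were Irf1 (0.86), Dio3 (0.86) and Ccl2 (0.85) over 20 and Ccl2 (0.85), Mzt1 (0.85) and Pdlim1 (0.84) over 16. Vcam1 was most like Col14a1 (0.93), Clmp (0.92) and Ifih1 (0.91) over 20 libraries, Ptgs1 most like Copb2 (0.91), Clmp (0.90) and Shox2 (0.90), and both pairs with Clmp dropped to 0.75 over 16. Over 16 libraries Vcam1 was most like Gpm6b (0.92), Col24a1 (0.88) and Fap (0.87). Ptgs1 was then most like Aspg, Sec22b and Obsl1 (0.83 each). Over 20 libraries Ptgs2 was most like Rusc1 (0.80), Gm24655 (0.79) and Bbs1 (0.79), Ptges most like Adamts14 (0.90), Ddx11 (0.86) and Ung (0.85), Lif most like Mettl3 (0.89), Mrpl33 (0.87) and Ptx3 (0.86), and Ccl7 most like Uba2, Slbp and Ppm1g (0.85, 0.84 and 0.84). Over 16 libraries Ptgs2 was most like Csrnp2 (0.88), Setd7 (0.84) and Slc38a2 (0.84). Ptges was then most like Evc (0.88), Bbs9 (0.84) and Ets1 (0.82). Lif was most like Nipal1 (0.82), Ptbp1 (0.82) and Tubgcp6 (0.81) over these 16, and Ccl7 most like Plaur (0.86), Mcph1 (0.81) and Rbbp4 (0.80).

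**Figure D4:**
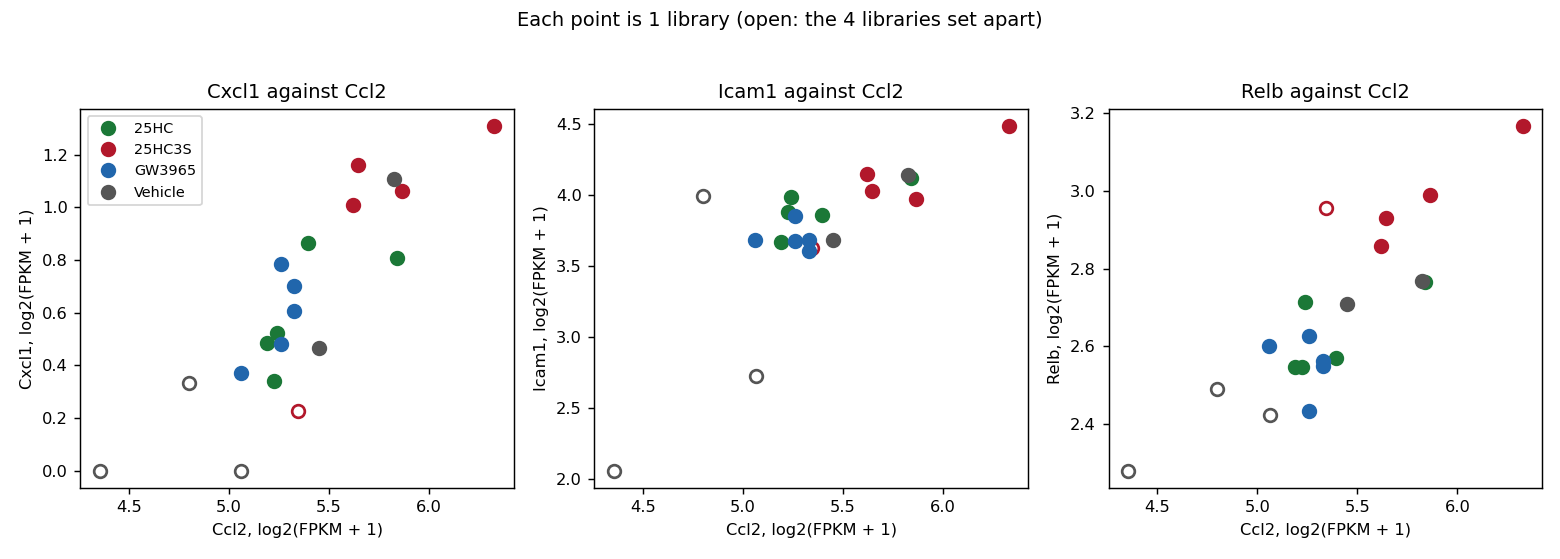
Cxcl1, Icam1 and Relb against Ccl2, each as log2(FPKM + 1), with 1 point per library, coloured by group and open for the 4 libraries that stood apart. The lowest Ccl2 value is that of Vehicle library 3 (19.5 FPKM) and the highest that of 25HC3S library 4 (79.3 FPKM).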

How the data were processed

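Gene-level FPKM values were deposited by the authors for 20 libraries, with gene coordinates and lengths. Reads were processed with CASAVA 1.8 and HISAT2 2.0.5 per the submitters' processing notes; the sources used here name no annotation or counting tool. All 10 genes have the coordinates of GENCODE M21 (GRCm38). FPKM times length gave whole fragments within 0.02 for at least 99.755% of values in each library; these were used for depth and for limma-voom.

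The test was limma 3.58.1 (R 4.3.3) on log2(FPKM + 1), with a trended prior, 1 mean per group and two-sided moderated tests, over genes reaching 1 FPKM in 5 or more libraries. A floor of 3 fragments was used for counts of 0. The fit was also run on simulated data in which no library stood apart, so that run does not cover the effect of the 4 libraries set apart. Fold changes on this scale understate those of low genes, and FPKM depends on the other genes in a library. The 10 genes, the lists and the 4 libraries set apart were chosen with earlier results of these data known. Named were all 10 genes, the called genes of each list (at most 4 per comparison) and the 3 genes most correlated with each; the ranking over 16 libraries was added after values were seen. Alternatives were another pseudocount, no filter, 2-group fits, a replicate block, 2 rescalings, array weights, limma-voom and leaving out libraries. A listed gene is not reported here.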

Additional observations from a re-analysis of the deposited data

Results flagged for a closer look

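In 8 of the 40 sets of 5 libraries (10 genes in 4 groups), the highest or lowest library stood further from its neighbour than Dixon's 95% value for 5 samples allows, where chance gives about 1 in 20. Ptgs1 (8.73 FPKM) and Vcam1 (7.07 FPKM) were high in 25HC3S library 1, which is among the 4 set apart, and without it 25HC3S ran from 5.88 to 6.22 FPKM for Ptgs1 and from 4.32 to 5.00 for Vcam1. Ptgs2 was high in 25HC library 2 (4.81 FPKM). Il6 was high in 25HC3S library 4 (0.528 FPKM). Ccl2 was high in 25HC library 5 (56.2 FPKM) and low in GW3965 library 1 (32.4 FPKM). Vcam1 was high in GW3965 library 5 (4.46 FPKM), and Icam1 was high in GW3965 library 2 (13.4 FPKM).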

How the results depend on the processing

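The rise of Ptgs2 in 25HC3S and the fall of Vcam1 in GW3965, both against Vehicle, kept their direction under every alternative and their call under all but the fit of 2 groups for Ptgs2. Over the values of single genes and their alternatives 1795 kept their direction and side of the threshold, 148 lost their call, 21 gained one and 64 changed sign. The cause of these changes was not tested. Depth limits Il6 and Cxcl1, which rest on at most 54 fragments.

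The number of all genes called differed between settings. In 25HC against Vehicle it was 5, and 1 in the fit of 2 groups, 16 with array weights and 3 without the 4 libraries. In 25HC3S against Vehicle it was 205, and 23, 769 and 504 in the same order. In GW3965 against Vehicle it was 824, and 152 in the fit of 2 groups. In 25HC3S against 25HC it was 104, and 205, 1053 and 916. In 25HC against GW3965 it was 222, and 1427, 1676 and 1674. In 25HC3S against GW3965 it was 591, and 1009, 2372 and 2278. Of the 9 genes, the fit of 2 groups called 0 in 25HC3S against Vehicle, 1 in GW3965 against Vehicle and 1 in 25HC against GW3965. With no filter 1 was called in GW3965 against Vehicle and 0 in 25HC3S against GW3965. Cxcl1, which passed the filter through its high group, is left out of the calls that follow. Array weights called Ptgs2 in 25HC3S against 25HC, Vcam1 in 25HC against GW3965, and Ptgs2, Ptges, Ccl2 and Icam1 in 25HC3S against GW3965. Leaving out the 4 libraries called none of the genes in 25HC3S against 25HC and the same genes in the other 2 comparisons.

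Signs turned mainly against Vehicle, none of them in a called difference. In 25HC against Vehicle, array weights and leaving out the 4 libraries gave 0.000801 and 0.00823 for Ptgs1, -0.0860 and -0.11 for Ptges, -0.11 and -0.11 for Lif, -0.15 and -0.26 for Ccl2, and -0.0513 and -0.18 for Cxcl1. Without the 4 libraries Il6 had -0.00171 and Icam1 -0.00629, and Ccl7 had 0.0133 with equal FPKM sums and 0.0145 with limma-voom. In 25HC3S against Vehicle the same pair of settings gave 0.0253 and 0.0168 for Ptgs1 and -0.0511 and -0.0762 for Ptges. In GW3965 against Vehicle they gave -0.0948 and -0.0922 for Lif, -0.31 and -0.39 for Ccl2, -0.10 and -0.20 for Cxcl1, and -0.12 and -0.21 for Icam1. There Ptges had 0.00574 with equal FPKM sums and 0.00449 with limma-voom, and Il6 had 0.10 with a pseudocount of 0.1.

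Leaving out 1 library at a time, the number of all genes called ran from 1 to 2659 in 25HC against Vehicle, 98 to 622 in 25HC3S against Vehicle, 450 to 3247 in GW3965 against Vehicle, each time highest without Vehicle library 1 (2085, 426 and 2998 without Vehicle library 5), and 60 to 93 in 25HC3S against 25HC. Of the 9 genes 0 to 1, 1 to 3 and 1 to 2 were called in the 3 comparisons against Vehicle, and 0 to 1 in 25HC3S against GW3965. Where 3 were called in 25HC3S against Vehicle, Cxcl1 was among them, and it had passed the filter through its high group. Uncalled differences that changed sign ran, in 25HC against Vehicle, from -0.0200 to 0.12 for Il6, -0.0360 to 0.15 for Lif and -0.15 to 0.15 for Ccl7. In 25HC3S against Vehicle they ran from -0.00844 to 0.13 for Il6 and -0.0540 to 0.25 for Ccl7. In GW3965 against Vehicle they ran from -0.12 to 0.0504 for Ptges, -0.0807 to 0.0551 for Il6, -0.0207 to 0.17 for Lif, -0.0373 to 0.33 for Ccl2 and -0.29 to 0.0114 for Ccl7. In 25HC3S against 25HC they ran from -0.0569 to 0.0520 for Il6 and -0.11 to 0.0484 for Vcam1, and in 25HC against GW3965 from -0.0510 to 0.0149 for Lif and -0.0485 to 0.0817 for Cxcl1.

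Libraries of different groups share replicate numbers, but the labels do not say that a number marks a shared source. Of 30 same-numbered pairs 4 had a correlation of deviations over 0.1 (r from -0.70 to 0.27), and 4 of 20 libraries correlated best with their own number. With the replicate block 1 gene was called in 25HC against Vehicle, 544 in GW3965 against Vehicle, and 0 of the 9 in 25HC3S against GW3965 (Ptgs2, adjusted p = 0.0666). Among listed genes the block ended the calls of Csf1 in 25HC3S against Vehicle (0.0843), Cxcl10 in GW3965 against Vehicle (0.0601) and in 25HC against GW3965 (0.0665), and Tlr2 (0.0688), Il1r1 (0.0950), C1qb (0.0664) and C1qc (0.0656) in 25HC3S against GW3965.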
